A study of Mus musculus with 12 samples.

Results

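The genes of the fat cell were followed in bulk RNA sequencing of tissue from beside the mouse spine. They comprised 10 of the 18996 genes in the count table: Adipoq, Lep, Retn, Cfd, Plin1, Cidec, Fabp4, Pck1, Pparg and Ucp1, found by their symbols. The list was chosen by the levels of these genes across the same 12 mice, with earlier results in view, so their levels and fold changes are given as a description, with no test. Of the 10 genes, 9 had enough counts to enter the fit across 14765 genes, and Ucp1 did not.

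The mice were BALB/c, a laboratory strain, of both sexes and 5–7 weeks of age by the study's methods, and no labelled group carried a transgene or a deletion. No operation mice gave unoperated soft tissue from beside the spine. In SHAM mice soft tissue was removed but the vertebral lamina was kept, and in Laminectomy mice the lamina at T12-L2 was excised as well. Both operated groups gave tissue labelled as scar, which by the study was taken 7 days after surgery. Each group had 4 mice. The comparisons ask how the tissue that forms after surgery, with and without opening of the spinal canal, differed from the unoperated tissue, and how both operations differed from each other. The operation and the kind of tissue that was taken cannot be told apart, because no unoperated mouse gave scar and no operated mouse gave soft tissue alone.

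White adipocytes store triglyceride in a single large droplet and release fatty acids when energy is needed. The nuclear receptor PPARG, together with C/EBP factors, drives their formation and keeps their genes active, and the mature cell coats its droplet with perilipin 1 and CIDEC, carries fatty acids on FABP4, and secretes adiponectin, leptin, adipsin and, in rodents, resistin. PCK1 makes the glycerol backbone on which fatty acids are esterified, and UCP1 makes heat in brown and beige fat. Tissue beside the spine holds muscle, fascia and fat, and around wounds mature adipocytes can shrink, release their lipid or lose their identity. In bulk tissue, fewer adipocytes and less of an RNA in each adipocyte cannot be told apart.

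Because these genes moved together, the stretches before their start sites were searched for short motifs. A RefSeq promoter (250 bases before to 50 after the start site, GRCm38.p6) was matched for 9 of the 10 genes, 12 promoters in all, and not for Fabp4. The 250 bases before the start site are shown for Adipoq, the gene against which likeness is measured below, for Lep, and for Plin1, 5′ to 3′ on the gene's own strand. Capitals mark matches to the C/EBP core TTGCNNAA.
Adipoq (chr16:23146286-23146535, plus strand): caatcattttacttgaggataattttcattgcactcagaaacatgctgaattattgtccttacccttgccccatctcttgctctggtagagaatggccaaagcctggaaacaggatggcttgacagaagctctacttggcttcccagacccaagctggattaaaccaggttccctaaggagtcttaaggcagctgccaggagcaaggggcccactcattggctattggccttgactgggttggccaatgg
Lep (chr6:29059971-29060220, plus strand): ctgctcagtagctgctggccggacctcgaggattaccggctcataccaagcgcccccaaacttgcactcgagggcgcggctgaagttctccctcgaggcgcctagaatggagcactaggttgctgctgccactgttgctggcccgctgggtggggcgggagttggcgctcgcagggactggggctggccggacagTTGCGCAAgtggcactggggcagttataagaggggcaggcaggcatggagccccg
Plin1 (chr7:79732777-79733026, minus strand): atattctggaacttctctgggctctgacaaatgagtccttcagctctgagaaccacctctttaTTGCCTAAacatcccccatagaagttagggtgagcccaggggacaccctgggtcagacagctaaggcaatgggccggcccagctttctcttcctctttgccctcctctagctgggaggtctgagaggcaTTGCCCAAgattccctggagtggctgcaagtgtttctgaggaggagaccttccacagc
The Lep match began 55 bases before the start site and read the same on both strands. Plin1 had matches at 187 and 58 bases before its start. The Adipoq window held no match to any motif searched. On both strands, TTGCNNAA occurred in 4 of the 12 promoters (1 each of Cidec, Lep, Plin1 and Pparg) and in 10.8% of 32851 promoters of the same length. The nuclear receptor half-site AGGTCA occurred in 3 of the 12 (2 of Pparg and 1 of Ucp1) and in 16.26% of all promoters, and the pair of half-sites 1 base apart to which PPARG binds with its partner RXR occurred in 0 of the 12 promoters and in 0.04% of all. The TATA box TATAAA occurred in 1 of the 12, a promoter of Pparg, and in 13.62% of all. A match to these letters describes the sequence only.

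Levels are in CPM, which are counts scaled to 1e+06 of a library size adjusted by TMM, and totals per mouse lay between 16802988 and 18077863 counts. In the unoperated tissue, all of the members except Ucp1 were well above the limit of detection in every mouse, and the RNA of fat cells was plainly part of this tissue. In the operated groups their levels were lower and varied widely between mice. SHAM replicate 3 stood apart from the other SHAM mice with far higher levels of these genes, so the SHAM fold change of each member is given with all 4 mice and then without it. With all 4 mice of each group, mean levels in SHAM mice were between 12.1% (Lep) and 51.5% (Fabp4) of the No operation mean over the 9 genes, and in Laminectomy mice between 2.06% (Pck1) and 25.6% (Fabp4). The median log2 fold change over the 9 genes was -2.29 in SHAM and -4.34 in Laminectomy, where the median of all genes tested was -0.002 and 0.009.

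**Figure D1:**
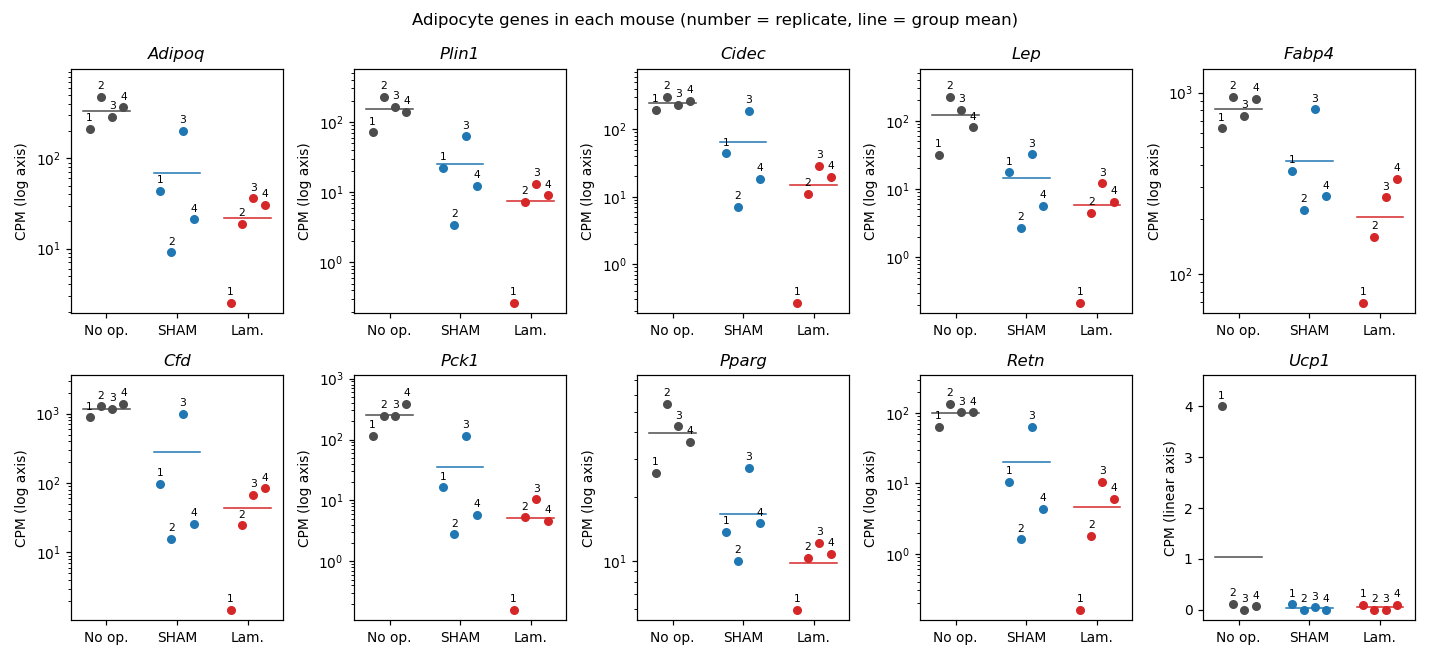
CPM of the 10 adipocyte genes in each of 12 mice, on log axes except for Ucp1, with the replicate number at each point and a line at the group mean. SHAM replicate 3 is the highest SHAM mouse and Laminectomy replicate 1 the lowest Laminectomy mouse for all 9 genes other than Ucp1.

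The secreted proteins of the adipocyte came first. Adipoq (identifier 11450, chromosome 16 of GRCm38, 23146536 to 23158028) encodes adiponectin, a hormone that raises insulin sensitivity and is made almost only by adipocytes. It was at 214.1, 480.1, 289.3 and 367.9 CPM without an operation (mice 1 to 4), at 43.95, 9.04, 203.0 and 21.03 CPM after SHAM surgery and at 2.49, 18.8, 36.0 and 30.6 CPM in Laminectomy mice. Every operated mouse was below every unoperated one, SHAM replicate 3 by little, while SHAM and Laminectomy mice overlapped. The log2 fold change was -2.29 (standard error 0.907) for SHAM and -3.94 (0.977) for Laminectomy against No operation, and -1.66 (0.895) for Laminectomy against SHAM. Without SHAM replicate 3 the log2 fold change of SHAM against No operation was -3.77 and that of Laminectomy against SHAM -0.17.

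Lep (identifier 16846, chromosome 6, 29060220 to 29073877) encodes leptin, the hormone by which fat stores signal to the brain. Its levels were 31.9, 223.7, 145.7 and 80.4 CPM without an operation, 17.5, 2.68, 32.4 and 5.66 CPM after SHAM surgery, and 0.212, 4.47, 12.02 and 6.41 CPM in Laminectomy mice. Relative to its mean it varied more among unoperated mice than the other 8 genes, and No operation replicate 1 was just below SHAM replicate 3. The log2 fold change was -3.05 (standard error 0.936) in SHAM, -3.8 without SHAM replicate 3, and -4.38 (1.00) in Laminectomy.

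Retn (identifier 57264, chromosome 8, 3655770 to 3660110) encodes resistin, which adipocytes of rodents secrete. It was at 64.1, 135.8, 103.1 and 103.0 CPM without an operation, at 10.5, 1.61, 63.6 and 4.32 CPM after SHAM surgery and at 0.159, 1.80, 10.6 and 6.05 CPM in Laminectomy mice. SHAM replicate 3 again came within 1 CPM of the lowest unoperated mouse. The log2 fold changes were -2.34 (standard error 1.03) in SHAM and -4.44 (1.15) in Laminectomy, and that of SHAM moved to -4.21 without this mouse.

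Cfd (identifier 11537, chromosome 10, 79890853 to 79892655) encodes adipsin, the complement factor D that adipocytes release. In unoperated tissue it was at 883.1, 1273, 1177 and 1383 CPM. In SHAM mice it was at 97.1, 15.6, 990.8 and 25.5 CPM, so that SHAM replicate 3 lay within the unoperated range while the other 3 mice were far below it. In Laminectomy mice it was at 1.48, 24.7, 66.9 and 83.6 CPM. The log2 fold change was -2.06 (standard error 1.24) in SHAM and -4.74 (1.40) in Laminectomy, with the largest standard errors of the 9 genes in both when all 12 mice were fitted. Leaving out SHAM replicate 3 took the SHAM value to -4.68.

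The genes of the lipid droplet followed the secreted proteins. Plin1 (identifier 103968, chromosome 7, 79720218 to 79732903), whose product guards the droplet of mature adipocytes against lipases, was at 70.8, 226.5, 165.5 and 138.7 CPM without an operation. It was at 22.3, 3.42, 62.3 and 12.4 CPM after SHAM surgery and at 0.265, 7.25, 13.2 and 9.02 CPM in Laminectomy mice. No operated mouse reached the unoperated range. The log2 fold changes were -2.58 (standard error 0.880) in SHAM, -3.56 without SHAM replicate 3, and -4.34 (0.961) in Laminectomy.

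Cidec (identifier 14311, chromosome 6, 113424634 to 113435760) encodes a droplet protein that fuses small droplets into the single large one. It was the steadiest of the members among unoperated mice (248.6 ± 46.4 CPM, SD, n = 4) together with Fabp4 and Cfd. SHAM mice had 44.1, 7.12, 188.2 and 18.4 CPM and Laminectomy mice 0.265, 11.1, 29.0 and 19.8 CPM. SHAM replicate 3 was below the lowest unoperated mouse, and both operated groups overlapped each other. The log2 fold changes were -1.95 (standard error 1.01) and -4.05 (1.11), and that of SHAM was -3.42 without SHAM replicate 3.

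Fabp4 and Pparg kept more of their level than the other genes. Fabp4 (identifier 11770, chromosome 3, 10204088 to 10208576) encodes the fatty acid carrier of adipocytes, which capillary endothelium and macrophages also make. It was at 634.2, 945.7, 744.9 and 923.7 CPM without an operation, at 371.2, 226.4, 809.0 and 267.8 CPM after SHAM surgery and at 69.3, 160.7, 264.7 and 335.2 CPM in Laminectomy mice. SHAM replicate 3, at 99.6% of the unoperated mean, lay in the middle of the unoperated range, and no Laminectomy mouse reached it. The log2 fold changes were -0.96 (standard error 0.477) and -1.97 (0.490), and that of SHAM was -1.49 with this mouse left out.

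Pparg (identifier 19016, chromosome 6, 115360951 to 115490399), the master regulator of adipocyte formation, was at 25.9, 54.3, 42.7 and 36.2 CPM without an operation. SHAM mice had 13.7, 10.1, 27.4 and 15.1 CPM, and Laminectomy mice 5.93, 10.4, 12.2 and 10.8 CPM. SHAM replicate 3 was above the lowest unoperated mouse, and the other 7 operated mice were all below it. With log2 fold changes of -1.27 (standard error 0.325) and -2.02 (0.334), it had the smallest standard error of the 9 genes when all 12 mice were fitted, and its SHAM value was -1.62 without SHAM replicate 3. Markers of other cells that are known to express either gene are given beside them. The summed level of 8 endothelial markers was 649.6 to 837.7 CPM in No operation, 513.1 to 697.9 CPM in SHAM and 488.1 to 760.5 CPM in Laminectomy mice, and 2 of the 8 fell in each operated group, beside 25.1% and 24.4% of all genes. The summed level of 10 macrophage markers was 892.6 to 2248 CPM in No operation, 5720 to 9310 CPM in SHAM and 4126 to 6281 CPM in Laminectomy mice. Their part in what remained of Fabp4 and Pparg was not tested.

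Pck1 (identifier 18534, chromosome 2, 173153048 to 173159273) had the largest fold change of the members in Laminectomy mice. Its enzyme feeds glycerol synthesis in adipocytes and glucose synthesis in liver and kidney. It was at 114.1, 247.1, 246.5 and 385.1 CPM without an operation, at 16.5, 2.78, 116.0 and 5.82 CPM after SHAM surgery and at 0.159, 5.30, 10.4 and 4.59 CPM in Laminectomy mice. SHAM replicate 3 was level with No operation replicate 1, and the remaining operated mice had no more than 16.5 CPM. The log2 fold changes were -2.81 (standard error 1.09) in SHAM and -5.60 (1.26) in Laminectomy, and that of SHAM was -4.89 without SHAM replicate 3. The summed level of 4 hepatocyte genes stayed at or below 2.70 CPM in every mouse. It was highest in SHAM replicate 3, where the other SHAM mice had 0.169 to 0.320 CPM and No operation mice 0.0689 to 1.89 CPM. The part of such cells in Pck1 was not tested.

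Ucp1 (identifier 22227, chromosome 8, 83290352 to 83298452) marked 1 mouse. It had 58 counts (4.00 CPM) in No operation replicate 1 and between 0 and 2 counts in each of the other 11 mice. No fold change is given, because both operated groups were at or under the floor of 3 counts in each library and 3 of the 4 unoperated mice were too. Cidea, another gene of brown and beige fat, was also highest in No operation replicate 1, at 3.17 CPM, where the other 3 unoperated mice had between 0.630 and 0.911 CPM.

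Levels can be set side by side between genes once divided by the length of their exons. In No operation mice the mean level in CPM per kilobase was highest for Cfd (1279 ± 233 SD, n = 4) and Fabp4 (906 ± 166), which overlapped within 1 SD. Adipoq (262 ± 88.0) and Cidec (142 ± 26.5) came next, each apart from its higher neighbour by more than 1 SD of both. From Cidec downward each gene overlapped its neighbour: Pck1 (93.3 ± 41.6), Retn (64.3 ± 18.6), Plin1 (38.8 ± 16.7), Lep (37.0 ± 25.5) and Pparg (16.7 ± 5.01). In Laminectomy mice the order opened with Fabp4 (232 ± 130 CPM per kilobase), followed by Cfd (47.9 ± 40.9), Adipoq (17.0 ± 11.5) and Cidec (8.56 ± 6.98). Pparg (4.14 ± 1.14), the ninth gene without an operation, was the fifth, and Retn, Pck1, Plin1 and Lep lay between 1.77 and 2.95 with overlapping spreads.

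In the fit across all genes, a gene was called when its adjusted p was below 0.05 and its log2 fold change beyond 0.5 in either direction. Of the 10 members, 5 were called lower in SHAM against No operation (Adipoq, Plin1, Lep, Pck1 and Pparg), beside 25.1% of all genes tested, and 0 higher, beside 25.7%. All 9 that could be tested were called lower in Laminectomy against No operation by edgeR, beside 24.4% of all genes, and 0 higher, beside 24.2%. DESeq2 called 8 of these 9 and not Cfd. No member was called between Laminectomy and SHAM, where edgeR called 0.0% of genes lower and 0.0% higher. The mice of both groups did not overlap for 4 of the 9 genes in SHAM against No operation (27.8% of all genes were lower without overlap), for 9 of 9 in Laminectomy against No operation (29.0%) and for 0 of 9 in Laminectomy against SHAM (5.07%). Since the same levels chose the members, these counts are description, and the comparisons share the No operation mice.

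The spread within the operated groups had the same shape in gene after gene. SHAM replicate 3 had the highest level of the 4 SHAM mice for 9 of 9 genes, where it was the highest for 20.6% of all genes tested, and the order of SHAM mice 3, 1, 4 and 2 held for 8 of the 9, beside 3.94% of all genes. Laminectomy replicate 1 was the lowest Laminectomy mouse for 9 of 9 genes, beside 31.6% of all genes, and No operation replicate 1 the lowest unoperated mouse for 9 of 9, beside 20.8%. As a median over the 9 genes, SHAM mice 1 to 4 stood at 14.6%, 2.28%, 62.7% and 6.23% of the No operation mean. Laminectomy mice 1 to 4 stood at 0.176%, 4.45%, 10.5% and 7.09%. SHAM replicates 2 and 4 were thus in the range of the Laminectomy mice.

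**Figure D2:**
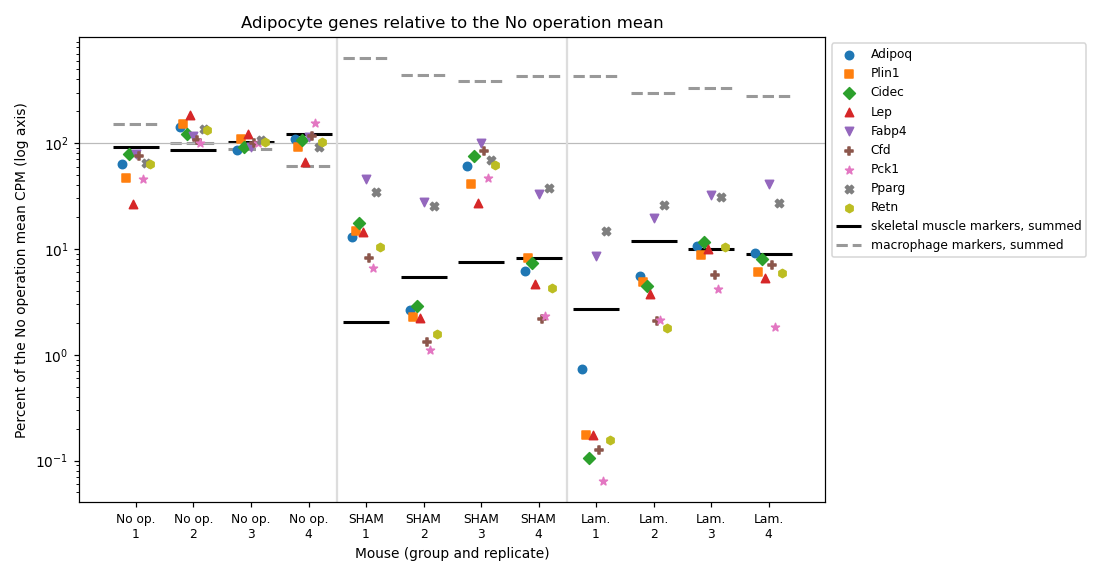
Level of 9 adipocyte genes in each mouse as a percent of the mean of the 4 No operation mice, on a log axis, with the summed skeletal muscle markers (solid dash) and macrophage markers (broken dash) on the same scale. In SHAM replicate 3 the adipocyte genes have a median of 62.7% while the muscle sum is at 7.45%.

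With all mice, the log2 fold changes of Laminectomy against SHAM lay between -2.78 and -0.75 over the 9 genes, with a median of -1.76. Without SHAM replicate 3, the log2 fold changes of SHAM against No operation moved to between -4.89 (Pck1) and -1.49 (Fabp4), with a median of -3.77, and those of Laminectomy against SHAM to between -0.78 (Plin1) and -0.06 (Cfd), with a median of -0.48. The number of members called lower in SHAM went from 5 to 9, where that of all genes went from 3703 to 3698. Without SHAM replicate 1, 2 members were called lower (Lep and Pparg), beside 3539 of all genes. These counts are description, since the same levels chose the members. Without Laminectomy replicate 3, the log2 fold changes of Laminectomy against No operation were -5.02 for Lep, -6.21 for Pck1 and -5.24 for Retn. In SHAM replicate 3, the skeletal muscle markers did not stand out with the fat genes: the summed level of 10 markers was 8713 CPM there, within the 2403 to 9583 CPM of the SHAM mice, where No operation mice had 100100 to 142300 CPM and Laminectomy mice 3160 to 13830 CPM. All 10 muscle markers were called lower in both operated groups, beside 25.1% of all genes in SHAM and 24.4% in Laminectomy mice. The 7 keratinocyte markers summed to 123.7 CPM in SHAM replicate 1 and 80.0 CPM in SHAM replicate 3, beside 11.1 to 16.7 CPM in the other SHAM mice, 21.3 to 41.7 CPM in No operation and 8.10 to 13.2 CPM in Laminectomy mice. The 4 sebaceous gland genes summed to 5.98 to 9.60 CPM in No operation, 1.77 to 4.215 CPM in SHAM and 2.22 to 2.93 CPM in Laminectomy mice. Every operated mouse was thus below every unoperated one. Of the 5 fibroblast genes, 4 rose and 1 fell in each operated group, beside 25.7% and 25.1% of all genes in SHAM and 24.2% and 24.4% in Laminectomy mice. They summed to 8238 to 26170 CPM in No operation, 53770 to 75530 CPM in SHAM and 49600 to 63010 CPM in Laminectomy mice. The 7 marrow granulocyte genes summed to 22.2 to 3013 CPM in No operation, 5.002 to 617.9 CPM in SHAM and 269.8 to 2087 CPM in Laminectomy mice. What these other cells contribute to the difference between SHAM mice was not tested.

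The genes whose pattern over the 12 mice was most like that of Adipoq were ranked by the root mean square difference of log2 CPM after each gene was centred on its own mean. The nearest of 14764 genes were Lgals12 (0.340), Serpina3c (0.369), Mrap (0.400), Car3 (0.4005), Glb1l2 (0.419), Acvr1c (0.420), Adhfe1 (0.4345) and Klhdc7a (0.450), where the median of all genes was 2.30. LGALS12 is a galectin of the lipid droplet, MRAP carries the ACTH receptor to the surface of adipocytes, and CAR3 is a carbonic anhydrase abundant in fat and muscle. Of the members, Plin1 ranked 11, Retn 15, Lep 24, Cidec 26, Cfd 42, Pck1 57, Fabp4 182 and Pparg 369. The points of this measure share the same 12 libraries.

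Beyond the members, 6 lists of adipocyte genes held 83 genes, of which 78 were tested. They were written with earlier results of these data known, and the values below are from the quasi-likelihood test of edgeR, adjusted over all genes after Benjamini and Hochberg. In SHAM against No operation, 54 of the 78 fell and 6 rose, beside 25.1% and 25.7% of all genes, with a median log2 fold change of -1.42. In Laminectomy against No operation, 64 fell and 4 rose, beside 24.4% and 24.2%, with a median of -1.98. Between Laminectomy and SHAM, edgeR called 0 of the 78, with 29 at an unadjusted p under 0.05, and DESeq2 called 5 lower and 1 higher, beside 601 genes in all. SHAM replicate 3 was the highest SHAM mouse for 53 of the 78 genes, beside 20.6% of all genes tested. By list this ranged from 19 of 20 (fatty acid uptake and triglyceride synthesis) to 2 of 8 (brown and beige fat). Without SHAM replicate 3, 60 of the 78 fell and 6 rose in SHAM with a median of -1.70, and the fold change moved by over 1.5 times in 23 of the 78, each further below 0. Its level was 63.3% of the No operation mean as a median over these genes, that of the other SHAM mice 30.9% and that of the Laminectomy mice 25.3%.

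**Figure D3:**
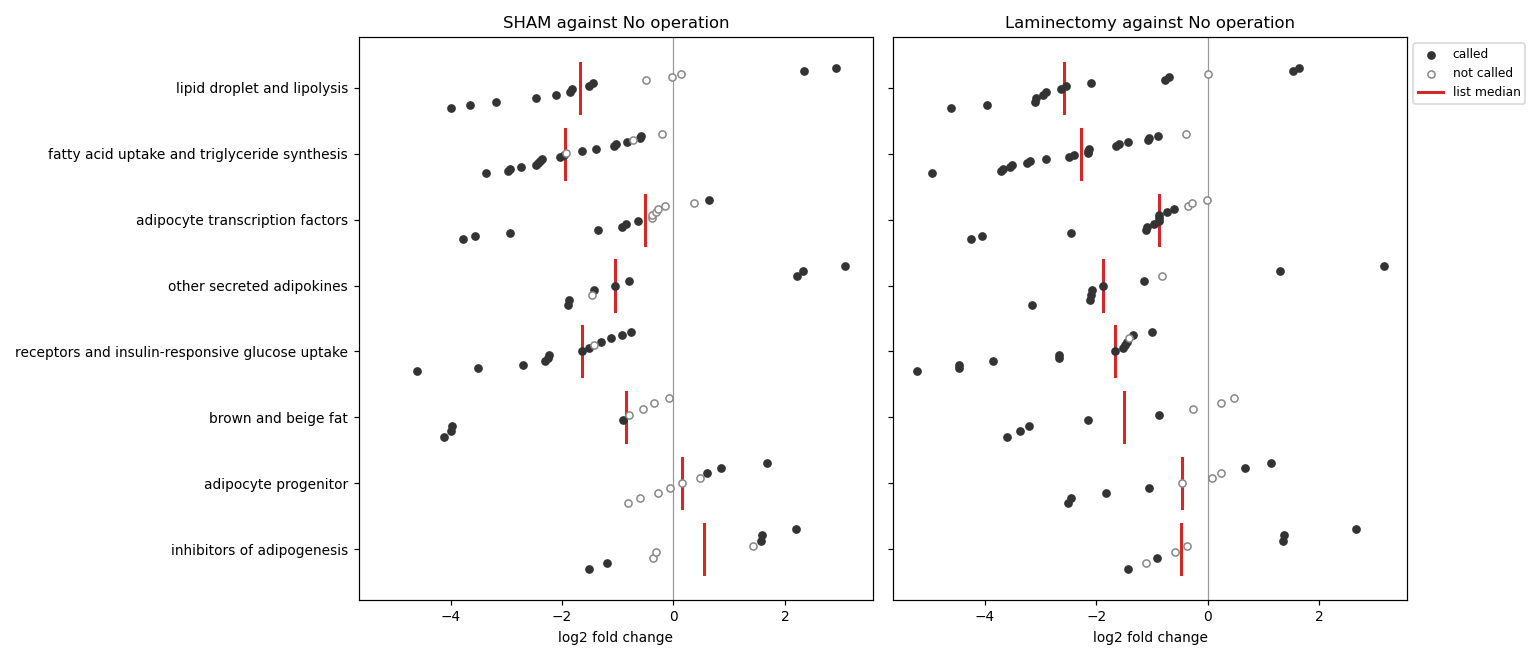
Log2 fold change of each tested gene in 6 adipocyte lists and in the progenitor and inhibitor lists, for SHAM and Laminectomy against No operation. Filled points passed the edgeR test, open points did not, and the red bar is the list median, which is below 0 for the 6 adipocyte lists in both panels.

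Among 14 genes of the lipid droplet and lipolysis, 9 fell and 2 rose in SHAM, beside 25.1% and 25.7% of all genes. In Laminectomy mice 11 fell and 2 rose, beside 24.4% and 24.2%. Plin4, a perilipin of adipocytes, fell, with a log2 fold change of -3.19 in SHAM (adjusted p = 0.00997, edgeR) and -4.62 in Laminectomy mice. Without SHAM replicate 3, the SHAM values of Plin4, Lipe and Pnpla2 were -4.33, -2.69 and -2.68. Lipe, the hormone-sensitive lipase, fell, with log2 fold changes of -1.86 and -3.08, and so did Pnpla2, which encodes the lipase of the first step of lipolysis (-1.82 and -2.91), and the monoglyceride lipase gene Mgll (-1.44 and -2.10). The droplet genes Plin5, Fitm1 and Fitm2 fell as well, at -4.0, -3.66 and -2.46 in SHAM and -3.96, -3.10 and -2.54 in Laminectomy mice. Plin5 and Fitm1 are known from muscle as well, and in SHAM replicate 3 they were at 10.8% and 8.73% of the No operation mean, where Lipe, Pnpla2 and Mgll were at 64.1%, 66.5% and 62.6% and Plin4 and Fitm2 lay between them at 28.9% and 31.1%.

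The 2 genes of this list that rose were Plin2 and Hilpda. Plin2 coats droplets in most cell types, macrophages among them, and HILPDA inhibits lipolysis and is induced by low oxygen. Plin2 was at 122.1, 74.9, 66.5 and 70.5 CPM in No operation, at 671.5, 246.1, 308.0 and 464.8 CPM in SHAM and at 343.6, 219.5, 214.4 and 187.7 CPM in Laminectomy mice, so neither operated group overlapped the unoperated one. The log2 fold change was 2.34 (standard error 0.335, adjusted p = 0.000119, edgeR) and 1.53 (0.326, adjusted p = 0.00189, edgeR). Hilpda rose by 2.92 (2.20 without SHAM replicate 1) and 1.63 on the log2 scale. The summed macrophage markers, given above, were also higher in every operated mouse than in any unoperated one, and their part in Plin2 was not tested.

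Of 20 tested genes of fatty acid uptake and triglyceride synthesis, 17 fell in SHAM and 19 in Laminectomy mice, beside 25.1% and 24.4% of all genes. None rose by this test, beside 25.7% and 24.2%. In this list SHAM replicate 3 was the highest SHAM mouse for 19 of the 20, beside 20.6% of all genes tested. Scd1, the desaturase that makes monounsaturated fatty acids, was at 1764, 7579, 6207 and 5911 CPM in No operation, at 505.1, 59.1, 2026 and 157.3 CPM in SHAM and at 44.6, 193.7, 285.4 and 166.3 CPM in Laminectomy mice. SHAM replicate 3 was above No operation replicate 1, as for Cfd, Lep, Fabp4, Pck1 and Pparg. Scd1 had a log2 fold change of -2.97 in SHAM (standard error 0.971, adjusted p = 0.0196, edgeR), where the call was lost without SHAM replicate 1 (-2.82, adjusted p = 0.0515, edgeR), and -4.96 (1.07, adjusted p = 0.00199, edgeR) in Laminectomy mice. Without SHAM replicate 3 it was -4.48 in SHAM (adjusted p = 0.00176, edgeR). Me1, which supplies NADPH for fatty acid synthesis, fell, with log2 fold changes of -2.36 in SHAM and -2.49 in Laminectomy mice. Acss2, which activates acetate, was at -2.73 and -2.91, Lpin1, a phosphatidate phosphatase, at -2.93 and -3.20, and Lpl, the lipase that frees fatty acids from lipoproteins, at -1.39 and -2.13, all past the test. In SHAM replicate 3, Me1, Acss2 and Lpin1 were at 32.4%, 25.5% and 24.9% of the No operation mean and Lpl at 51.8%. The list median was 51.1% there, and the part of muscle in these falls was not tested.

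Among the 14 adipocyte transcription factors, 7 fell and 1 rose in SHAM, beside 25.1% and 25.7% of all genes. In Laminectomy mice 11 fell, beside 24.4%. The medians were -0.51 in SHAM and -0.87 in Laminectomy mice on the log2 scale. Klf15 fell, with log2 fold changes of -3.77 (-4.44 without SHAM replicate 3) and -4.26, and so did Rxrg (-2.94 and -2.45). In SHAM replicate 3 Klf15 and Rxrg were at 15.6% and 21.5% of the No operation mean, beside a list median of 80.0%. The summed muscle markers were at 7.45% there, and the part of muscle in the fall of both genes was not tested. Rxra, the partner of PPARG, was at -0.85 (standard error 0.0975) and -1.09 (0.0979), and the coactivator gene Ppargc1b at -1.36 and -0.61, all past the test, though the Laminectomy call of Ppargc1b was lost without No operation replicate 4 (-0.52, adjusted p = 0.0641, edgeR). Cebpa, which keeps adipocytes differentiated, was at -0.38 in SHAM (adjusted p = 0.0709, edgeR), and it was called without SHAM replicate 3 (-0.52, adjusted p = 0.0183, edgeR) or without No operation replicate 1 (-0.51, adjusted p = 0.0144, edgeR). It fell by 0.87 in Laminectomy mice. Nr1h3, the liver X receptor alpha, was at -0.31 in SHAM without a call and fell by 0.87 in Laminectomy mice. Cebpb, an early factor of adipocyte formation that is also induced in inflammation, rose by 0.63 in SHAM (adjusted p = 0.026, edgeR), a call that was lost without No operation replicate 2 or 3 or SHAM replicate 1 (adjusted p between 0.0623 and 0.0784, edgeR), and was at -0.35 in Laminectomy mice (adjusted p = 0.189, edgeR).

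Other adipokines went both ways. Of 9 tested, 5 fell and 3 rose in SHAM, beside 25.1% and 25.7% of all genes. In Laminectomy mice 6 fell and 2 rose, beside 24.4% and 24.2%. The number that rose was thus near that of genes at large. Vegfb, a growth factor tied to fatty acid transport, fell, with log2 fold changes of -1.90 and -2.11, and so did Nampt, which makes an NAD precursor (-0.80 and -1.14). In SHAM replicate 3 they were at 29.15% and 52.3% of the No operation mean, beside a list median of 75.5%. The part of muscle in their fall was not tested. Apln, which encodes the vascular peptide apelin, rose in both groups without overlap with the unoperated mice, from 3.66 to 7.57 CPM in No operation to 32.0 to 69.0 CPM in SHAM and 34.3 to 89.7 CPM in Laminectomy mice. The log2 fold changes were 3.07 (standard error 0.352, adjusted p = 2.93e-05, edgeR) and 3.16 (0.353, adjusted p = 3.28e-05, edgeR). Angptl4, an inhibitor of lipoprotein lipase, rose by 2.33 and 1.29.

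Rarres2, which encodes the chemoattractant chemerin, separated SHAM from Laminectomy mice more than any other gene DESeq2 called in these lists. It was at 61.3, 62.3, 75.4 and 67.2 CPM in No operation, at 661.1, 321.9, 121.8 and 123.2 CPM in SHAM and at 6.04, 24.3, 58.2 and 61.6 CPM in Laminectomy mice. All SHAM mice were above, and all Laminectomy mice below, the median unoperated mouse, with only Laminectomy replicate 4 inside the unoperated range. In SHAM against No operation its log2 fold change was 2.21 (adjusted p = 0.0146, edgeR), where it was 1.5 without SHAM replicate 1 (adjusted p = 0.0547, edgeR). Between Laminectomy and SHAM it was -3.03 (adjusted p = 0.111, edgeR, and 0.000376 by DESeq2). The other genes DESeq2 called lower in Laminectomy than in SHAM mice were Nr1h3 (-0.55), Cebpb (-0.97), Lpl (-0.73) and Angptl4 (-1.04), and the gene called higher was Ppargc1b (0.76). Keratinocyte markers, which were high in SHAM replicate 1, moved with Rarres2 in that mouse but not in SHAM replicate 3, and their part was not tested.

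Of 13 genes for receptors and insulin-responsive glucose uptake, 12 fell in each operated group, beside 25.1% of all genes in SHAM and 24.4% in Laminectomy mice. Adrb3, the beta-adrenergic receptor of adipocytes that triggers lipolysis, fell to a log2 fold change of -5.23 in Laminectomy mice (adjusted p = 0.00256, edgeR) and -2.70 in SHAM (adjusted p = 0.0354, edgeR), and the SHAM call was lost under 7 alternatives (adjusted p between 0.0502 and 0.0923, edgeR), 5 of them the omission of 1 mouse (No operation replicate 3 or 4, or SHAM replicate 1, 2 or 4), with log2 fold changes of -2.29 to -2.78. Without SHAM replicate 3 Adrb3 was at -4.81 in SHAM (adjusted p = 0.00098, edgeR), and without Laminectomy replicate 4 at -6.00 in Laminectomy mice. Insr, the insulin receptor, fell, with log2 fold changes of -1.31 and -1.48, and so did Adipor1, a receptor for adiponectin (-0.93 and -1.0). Slc2a4, the insulin-responsive glucose transporter GLUT4 of fat and muscle, fell (-4.61 and -4.47) and was at 7.34% of the No operation mean in SHAM replicate 3. Lepr, the leptin receptor, fell (-3.51 and -2.67) and was at 9.86% there.

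Among 8 tested genes of the brown and beige fat list, 4 fell in SHAM and 5 in Laminectomy mice, beside 25.1% and 24.4% of all genes. Cox7a1 and Cox8b, which encode respiratory chain subunits, and Ppargc1a, which encodes a coactivator of mitochondrial genes, are expressed in muscle too. They fell, with log2 fold changes of -3.98, -3.99 and -4.11 in SHAM and -3.22, -3.60 and -3.38 in Laminectomy mice. In SHAM replicate 3 they were at 5.31%, 6.76% and 8.14% of the No operation mean, below every member in that mouse except Ucp1. The muscle markers had a median of 6.54% there. How much of the fall of these genes came from muscle was not tested.

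Several members have close relatives in the genome, and these did not follow them as a family. Of 10 tested paralogues, 4 rose and 4 fell in each operated group, beside 25.7% and 25.1% of all genes in SHAM and 24.2% and 24.4% in Laminectomy mice. Fabp5, the fatty acid carrier of skin and macrophages, was at 21.9 to 36.8 CPM in No operation, 193.5 to 387.0 CPM in SHAM and 169.7 to 323.8 CPM in Laminectomy mice. It rose by 3.40 (standard error 0.286, adjusted p = 4.97e-06, edgeR) and 3.05 (0.282, adjusted p = 1.18e-05, edgeR) on the log2 scale. The ratio of Fabp4 to Fabp5 in CPM was 17.2 to 39.3 in No operation mice, 4.18 in SHAM replicate 3, 0.739 to 0.959 in the other SHAM mice and 0.214 to 1.56 in Laminectomy mice. Fabp7 rose by 2.82 and 2.61 from a mean of 0.355 CPM (3.96 and 3.75 without No operation replicate 2, and 2.00 in SHAM without SHAM replicate 1), and the muscle and heart carrier Fabp3 fell (-3.23 and -2.51).

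**Figure D4:**
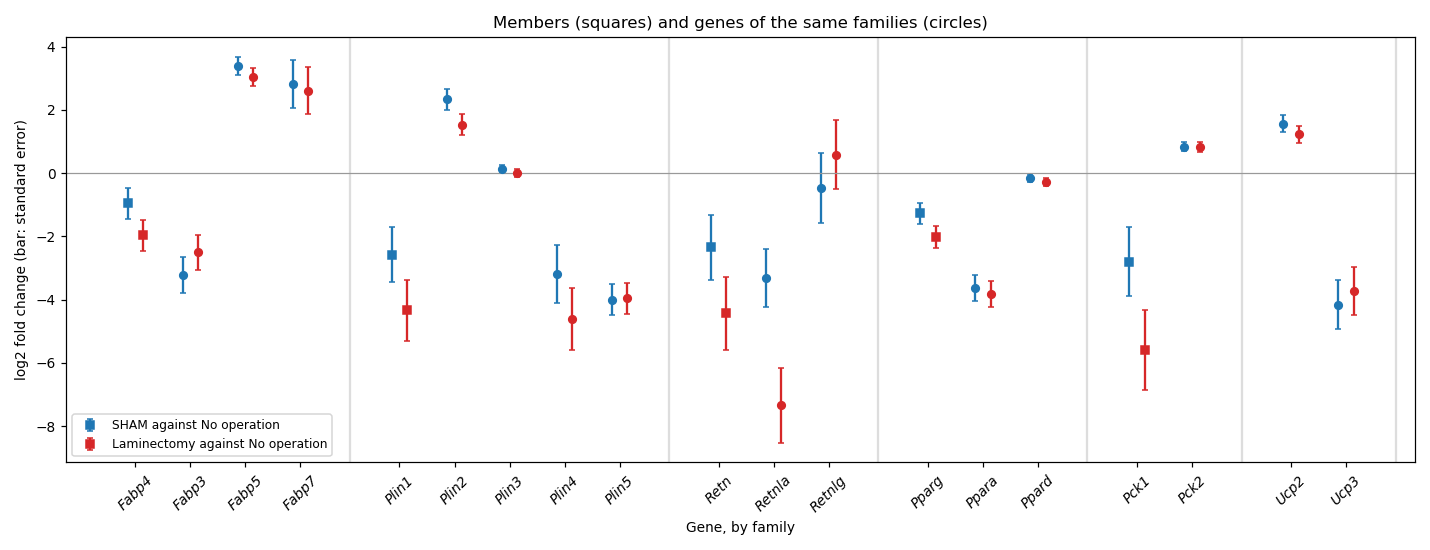
Log2 fold change with its standard error of the members (squares) and genes of the same families (circles), for SHAM and Laminectomy against No operation, fitted over 4 mice a group. Fabp5, Fabp7, Plin2, Ucp2 and Pck2 lie above 0 in both comparisons, and Fabp4, Plin1, Retn, Pparg and Pck1 below it.

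Plin1 and Plin2 moved in opposite directions, and their ratio in CPM was 0.580 to 3.02 in No operation mice, 0.202 in SHAM replicate 3, 0.0139 to 0.0332 in the other SHAM mice and 0.00077 to 0.0614 in Laminectomy mice. Retnla, a resistin relative that alternatively activated macrophages and adipose tissue secrete, was at 63.0 to 101.1 CPM in No operation, at 17.9, 0.909, 10.3 and 0.320 CPM in SHAM and at 0.0 to 1.19 CPM in Laminectomy mice, with log2 fold changes of -3.31 (standard error 0.912, adjusted p = 0.00804, edgeR) and -7.35 (1.19, adjusted p = 0.000321, edgeR). The SHAM value was -4.23 without SHAM replicate 1 and the Laminectomy value -8.53 without Laminectomy replicate 3. Retnlg, a myeloid relative, was at -0.47 and 0.58 with standard errors of 1.10 and 1.09, and was not called. Of the 10 macrophage markers, 10 rose in SHAM and 9 in Laminectomy mice, beside 25.7% and 24.2% of all genes, where Retnla fell.

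Ucp2, an uncoupling protein gene of immune cells among others, rose by 1.56 and 1.23, and Ucp3, that of muscle, fell (-4.16 and -3.74, or -3.29 and -2.86 without No operation replicate 4). Pck2, the mitochondrial isozyme of Pck1, rose by 0.84 and 0.82. Ppara, the receptor that drives fatty acid oxidation, fell (-3.64 and -3.83), and Ppard was at -0.15 and -0.28 (standard error 0.125 in each) with no call, a direction that turned with plain library sizes. Cideb was too low to be tested.

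Genes of adipocyte progenitors were counted as a separate list, whose difference from the mature genes was not tested. Of 9 progenitor genes, 3 rose and 0 fell in SHAM, beside 25.7% and 25.1% of all genes, with 4 of the 9 at an unadjusted p under 0.05 (edgeR). In Laminectomy mice 2 rose and 4 fell, beside 24.2% and 24.4% of all genes. Icam1, an adhesion gene of committed preadipocytes and of activated endothelium, rose by 1.68 and 1.14, and Pdgfrb, a receptor of mural cells and fibroblasts, by 0.61 and 0.67. Pdgfra rose by 0.85 in SHAM and was at 0.23 in Laminectomy mice (adjusted p = 0.37, edgeR). Dpp4, a gene of early interstitial progenitors, was at 54.0 to 83.3 CPM in No operation, 24.9 to 72.5 CPM in SHAM and 5.08 to 24.9 CPM in Laminectomy mice. It had a log2 fold change of -0.60 (adjusted p = 0.249, edgeR) and -2.52 (adjusted p = 0.000728, edgeR; -3.15 without Laminectomy replicate 3), and -1.92 between Laminectomy and SHAM (adjusted p = 0.112, edgeR). Cd55, of the same cells, was at -0.81 (adjusted p = 0.0514, edgeR) in SHAM, where every SHAM mouse was below every unoperated one and it was called without No operation replicate 1 (adjusted p = 0.0484, edgeR) or Laminectomy replicate 1 (0.000446), and fell by 1.83 in Laminectomy mice.

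Of 8 inhibitors of adipogenesis, 3 rose and 2 fell in each operated group, beside 25.7% and 25.1% of all genes in SHAM and 24.2% and 24.4% in Laminectomy mice, so the counts were near those of genes at large. Tgfb1, the growth factor that drives fibroblasts toward scar and holds back adipocyte formation, rose by 1.58 (standard error 0.237) and 1.36 (0.235) on the log2 scale. Sox9, a cartilage factor that represses C/EBP genes, rose by 1.57 and 2.65. Gata2, a factor of blood and endothelial cells, fell (-1.51 and -1.44). Klf2 was at -0.36 in SHAM without a call and fell by 0.91 in Laminectomy mice, and Wnt10b fell by 1.20 in SHAM and was at -0.38 (adjusted p = 0.263, edgeR) in Laminectomy mice.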

How the data were processed

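RNA from 12 mice, 4 per group, was sequenced from stranded mRNA libraries. Groups and replicate numbers came from the labels. The study gives 3 mice per group without saying which, so all 4 were kept, and each mouse was taken as a separate animal. Per the submitters' processing notes, STAR 2.6.1b, featureCounts 2.0.1, DESeq2 1.30.1 and GRCm38 were used, with counting at default settings by the study's methods. The authors deposited a table of estimated counts per gene, not normalized, in which 10.22% of the values are not whole. Whole counts had been assumed, so values were rounded, which changed none by more than 0.5. Totals differed little between mice, and depth covers counting error only.

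Genes were filtered with filterByExpr (4231 removed), scaled with TMM and fitted over all 12 mice with edgeR 4.0.16 (glmQLFit, glmQLFTest) in R 4.3.3, after a check on simulated data. A gene was called where p, adjusted after Benjamini and Hochberg, was below 0.05 and the log2 fold change beyond 0.5 in either direction. Alternatives were DESeq2 1.42.0 on the same genes, RLE, plain library size, no filter, a log2 threshold of 1, a fit of only the 2 groups compared, the replicate block and the omission of each mouse. No exon of a member overlapped another gene in GENCODE (GRCm38), from which coordinates and exon lengths were taken.

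The members and lists were chosen with earlier results of these data known. The text names the members, their paralogues, the 8 genes most like Adipoq and, per list and comparison, the 3 called genes with the smallest adjusted p and those called against the direction of the list. Plin4, Lipe, Pnpla2, Scd1, Adrb3, Cebpa and Cidea were named after their values were seen. Retnlb is not analysed here.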

Additional observations from a re-analysis of the deposited data

Results flagged for a closer look

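The gap of the highest or lowest mouse to its nearest neighbour, divided by the range of the group on the log2 scale, was compared with Dixon's 95% critical value for 4 samples in 30 groups (10 genes in 3 groups), and 2 exceeded it. Chance gives about 1 in 20, so a pair of such mice among 30 is near what chance gives, and the groups share the same 12 libraries. The values are a description, since they also chose the genes. Plin1 was at 0.265 CPM in Laminectomy replicate 1, with 7.25 to 13.2 CPM in the other 3 Laminectomy mice (ratio 0.834). Ucp1 was at 4.00 CPM in No operation replicate 1, with 0 to 2 counts in the other 3 No operation mice (ratio 0.944).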

How the results depend on the processing

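No log2 fold change of a member turned its direction under the alternatives run, but their sizes depended on SHAM replicate 3, without which Cfd went to -4.68 in SHAM against No operation and to -0.06 in Laminectomy against SHAM, the largest moves of a member. For the counts below, adipocyte list genes are those that passed the filter of each fit. Without SHAM replicate 3, 62 of them were lower in SHAM, beside 60 of the 78 tested with all mice. Leaving out 1 mouse at a time, 49 to 62 adipocyte list genes were lower and 4 to 6 higher in SHAM, 63 to 66 lower and 4 higher in Laminectomy, and 0 differed between both. All genes called numbered 6966 to 7642, 6534 to 7416 and 0. With a log2 threshold of 1, all genes called went from 7502 to 4589 in SHAM and from 7183 to 4323 in Laminectomy. DESeq2 called 601 genes between Laminectomy and SHAM, with 5 adipocyte list genes lower and 1 higher, where edgeR called 0 of all genes (smallest adjusted p 0.0698, 2359 genes at an unadjusted p under 0.05). Plain library size moved the median log2 fold change of all genes to 0.253 in SHAM and 0.328 in Laminectomy and the share of calls that were higher from 50.6% to 66.0% and from 49.8% to 69.9%, and under it 46 and 59 adipocyte list genes were lower. Ppard then turned to 0.11 and 0.05. Retnlg ranged from -0.89 to 0.85 in SHAM and from -0.11 to 1.9 in Laminectomy as 1 mouse was left out, turning without No operation replicate 2 and without Laminectomy replicate 3, and was at 1.13 in SHAM with the replicate block. Of 12 same-numbered pairs, 7 had deviations correlated over 0.1 and the whole range was -0.228 to 0.352, and 2 of the 12 mice correlated best with their own number in both other groups. As not every pair passed 0.1, the numbers were not taken as pairs. With the replicate block, 56 adipocyte list genes were lower and 6 higher in SHAM and 63 lower and 4 higher in Laminectomy, of 7442 and 7153 genes called. The block moved Cidec, Cfd, Pck1 and Retn to -2.63, -3.33, -3.65 and -3.31 in SHAM, and Cfd and Retn to -5.37 and -5.12 in Laminectomy. The cause of these shifts was not tested. In Laminectomy replicate 1, 5 of the 9 members tested had 5 counts or fewer, which limits how well their levels are known.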
